A study of Mus musculus with 24 samples.

Results

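Tumour-bearing livers of wild-type mice were compared with livers of Mdr2-/- mice that carried no tumour. Mdr2 is an older name of Abcb4, the canalicular pump that moves phosphatidylcholine into bile. The treatment labels CCA.Wild-type and Ctrl.Mdr2-/- chose the libraries, 6 in each group and 12 of the 24 in the series, and all 17216 genes that passed a filter on low counts, of 49315 counted, were described. CCA.Wild-type livers had the wild-type genotype and received AKT and YAP1 on transposons, mobile DNA that inserts an oncogene into the genome of the cells it enters. Ctrl.Mdr2-/- livers lacked Mdr2 and received an empty vector, so that both groups had been through transduction. The remaining groups, Ctrl.Wild-type with the empty vector and CCA.Mdr2-/- with AKT and YAP1, hold 6 libraries each and serve here as levels for orientation. The series' design sets each tumour group against the control of its own genotype, and the comparison here crosses them. Genotype and tumour change together between the 2 groups compared, so their parts in a difference cannot be told apart within it. Each library is RNA of whole liver tissue depleted of ribosomal RNA; the share of tumour in a tumour-bearing piece, the age of the mice, the time after transduction, the promoter and species of the oncogenes and the cells they entered are not stated in the labels.

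Phosphatidylcholine forms mixed micelles with bile salts and shields the duct lining from them. Mice without Mdr2 secrete bile free of phospholipid and develop chronic injury of the bile ducts with portal inflammation, scarring and a ductular reaction, the outgrowth of small duct-like cells that follows cholestatic damage. AKT is the kinase through which insulin and growth factors drive growth and lipid synthesis. YAP1 is the transcription coactivator held back by the Hippo kinases, and in mouse liver it turns hepatocytes towards duct-like cells. The comparison therefore sets a duct-type liver tumour beside a reactive duct response to bile.

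The 12 libraries held 23016702 to 30288385 counts, so that 1 CPM (counts scaled to library size after TMM normalisation, the level used throughout) rests on 22.7 to 29.96 counts. Wild-type tumour replicate 6 stood apart from its group: 7 abundant nuclear non-coding RNAs took 2.30% of its counts and 5.51 to 6.51% in the other 5, against 1.74 to 4.29% in the Mdr2-/- controls. The group means of that share were 5.44 ± 1.59% and 3.19 ± 1.02% (SD, n = 6, 2-sided exact permutation test, p = 0.026 adjusted over 4 gene classes). Mitochondrially encoded genes took 5.45 ± 1.14% of counts in tumour livers against 4.34 ± 0.41% (SD, n = 6, exact permutation test, adjusted p = 0.0346), and haemoglobin genes 0.0940 ± 0.0325% and 0.0337 ± 0.0164% (SD, n = 6, exact permutation test, adjusted p = 0.026). In exact permutation tests these calls were lost without Mdr2-/- control replicate 1, 5 or 6, with adjusted p from 0.0519 to 0.0606 for nuclear RNAs and 0.0519 for haemoglobin; that of mitochondrial genes was also lost without Mdr2-/- control replicate 3 or 4 or tumour replicate 4, with adjusted p from 0.0519 to 0.0909 over the 6. Sample titles carry numbers of 2000 or more in all 6 tumour libraries and in 2 of the 6 Mdr2-/- controls, and lower ones in the other 4. Whether the nuclear RNA share or the title number has a part in the gene differences was not tested beyond the fits given with the counts. The median SD of log2 levels over 13948 genes was 0.319 among tumour livers and 0.265 among Mdr2-/- controls, and was larger in the tumour group for 66.0% of the genes.

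Wild-type tumour livers and Mdr2-/- controls differed in 4379 genes, or 25.4% of those tested (edgeR quasi-likelihood test, Benjamini-Hochberg adjusted p under 0.05 over all 17216 genes). Of these, 2327 were higher in tumour livers (13.5%) and 2052 were lower (11.9%). Counts of list members in all later paragraphs are to be read beside these shares, and counts near them are no result about a list. At least 2-fold change was reached by 1039 of the higher genes (6.04% of all tested) and 427 of the lower ones (2.48%). For 1040 genes, also 6.04%, every tumour library lay above or every one lay below all Mdr2-/- controls. Leaving out tumour replicate 6 raised the number called to 7005, with 3598 lower and 700 at least 2-fold lower, and leaving out tumour replicate 2 lowered it to 2863, with 1540 higher. Without tumour replicate 1 there were also 1540 higher. With the nuclear RNA share of each library in the model 1279 genes were called, 1030 of them among the 4379. Of the 4379 genes 4327 kept their sign, and the log2 differences of the 4379 were a median of 0.61 times those of the main model. With the range of the title number in the model 2595 were called. Against the healthy wild-type controls, which both of the following comparisons share, tumour livers differed in 4891 genes (28.4%; 16.9% higher, 11.5% lower) and Mdr2-/- controls in 8690 (50.5%; 26.2% higher, 24.3% lower).

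**Figure D1:**
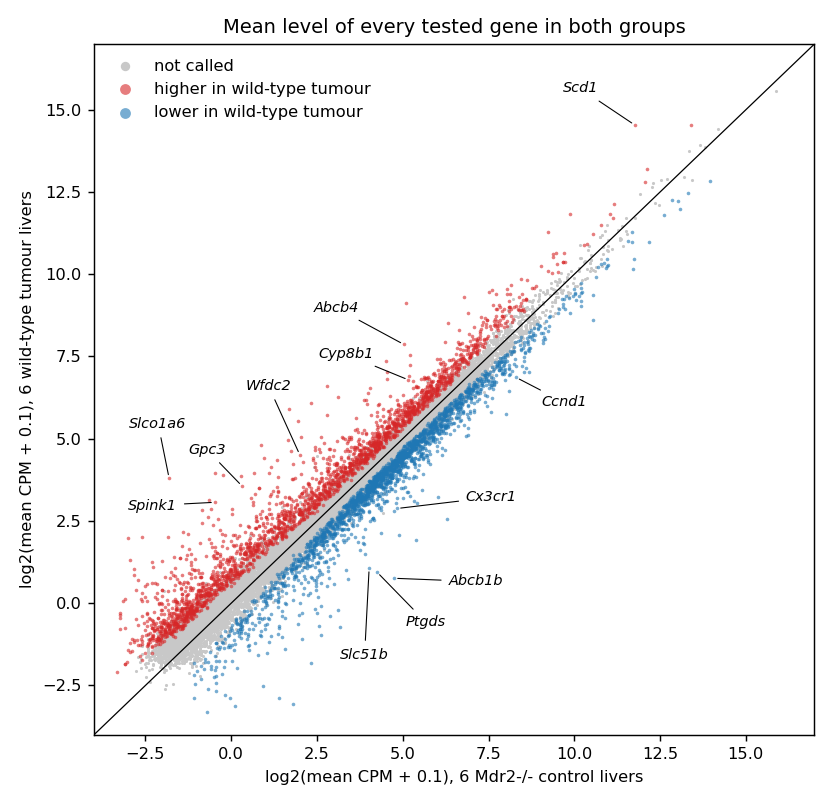
Mean level of each of the 17216 tested genes in 6 Mdr2-/- control livers (horizontal axis) and 6 wild-type tumour livers (vertical axis), both as log2(mean CPM + 0.1); red and blue points are genes called higher (2327) and lower (2052) in tumour livers, grey points are not called. Abcb4, Scd1, Slco1a6 and Spink1 lie far above the diagonal, and Abcb1b, Ptgds and Slc51b far below it.

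The targeted gene followed the labels. Abcb4 read 165, 215 and 361 CPM (lowest, median and highest of 6 libraries, the order used for all triplets) in tumour livers and 23.8, 31.3 and 41.6 CPM in Mdr2-/- controls. All tumour libraries stood above all controls, and the log2 difference was 2.84 ± 0.23 (SE; edgeR adjusted p = 5.52e-09). The remaining reads in the knockout averaged 32.6 ± 6.81 CPM (SD, n = 6), while healthy wild-type controls averaged 285 ± 49.8. Of the 8 tested genes among the 5 nearest on either side of Abcb4 on the chromosome, 3 were called: Crot, a peroxisomal carnitine acyltransferase, and Tmem243 were higher in tumour livers, at 768 against 452 CPM and 137 against 65.3 CPM, and Abcb1b was lower. Both higher neighbours were looked at after their values were seen. The call of Crot was lost without tumour replicate 1 or 2 (edgeR adjusted p = 0.0691 and 0.0673) and without Mdr2-/- control replicate 1 or 6 (0.0526 and 0.0516).

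Abcb1b, a drug efflux pump of the same family that lies beside Abcb4, had the largest fall among named genes of at least 5 CPM in the higher group and no overlap between libraries. It read 1.17, 1.42 and 2.45 CPM in tumour livers and 19.4, 24.2 and 46.9 CPM in Mdr2-/- controls. No library of one group reached the other, with a log2 difference of -4.06 ± 0.29 (edgeR adjusted p = 1.42e-09). The tumour level was near the healthy mean of 1.39 CPM, from which it was not called different (log2 difference 0.21; edgeR adjusted p = 0.637), and Mdr2-/- tumour livers averaged 32.1 CPM. Its paralog Abcb1a, which lies next to it, was not called at 32.4 and 50.9 CPM, and how the authors' counting shared reads between the near-identical pair is not known.

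Reads assigned to the mouse Akt1 gene were more abundant in tumour livers and those of Yap1 less abundant. Akt1, the kinase gene named in the transduction, read 58.5, 86.0 and 162 CPM in tumour livers and 49.0, 52.2 and 64.4 CPM in Mdr2-/- controls, and tumour replicates 3, 5 and 6 were above every control. The log2 difference was 0.83 ± 0.25 (edgeR adjusted p = 0.0187). Yap1 read 40.2, 48.0 and 77.5 CPM against 59.1, 72.4 and 86.3 CPM, with replicate 6 the only tumour library above the lowest control, and a log2 difference of -0.48 ± 0.15 (edgeR adjusted p = 0.0233). That call was lost without tumour replicate 1 (edgeR adjusted p = 0.0586) or 2 (0.0592) and without Mdr2-/- control replicate 1 (0.0586) or 6 (0.057). Whether transposon copies were counted in either gene was not tested.

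The counts called among genes of the YAP1 and AKT pathways are to be read beside the 13.5% of all genes called higher and the 11.9% called lower, and shares near these are no result about the pathways. Of 23 tested YAP and TAZ target genes, 2 were higher and 1 lower in tumour livers, with a median log2 difference of 0.04 beside 0.03 over all genes. Leaving out tumour replicate 1, 3, 5 or 6 or Mdr2-/- control replicate 3 or 4 moved these counts, to 1 to 4 higher and 1 to 4 lower, and on log2(TPM + 1) there were 1 higher and 2 lower. Igfbp3, a carrier of insulin-like growth factors, was higher (57.0, 64.0 and 85.7 against 13.0, 19.8 and 25.7 CPM, log2 difference 1.75 ± 0.18). Axl, a receptor tyrosine kinase, was lower (32.5, 40.8 and 55.9 against 56.0, 69.3 and 80.3 CPM, -0.70 ± 0.14). Both genes separated the groups without overlap. The textbook targets Ccn1 and Ccn2, listed as Cyr61 and Ctgf in the files and coding for secreted matricellular proteins, were not called, at 35.1 against 48.0 CPM and 43.0 against 26.6 CPM. Ankrd1, a nuclear ankyrin-repeat protein, was not called either: it read 0.859, 5.53 and 12.9 CPM in tumour livers and 1.16, 1.84 and 5.08 CPM in Mdr2-/- controls, and the 95% interval of its log2 difference ran from 0.03 to 2.37. Against healthy wild-type controls the list's median log2 difference was 0.64 in tumour livers and 0.58 in Mdr2-/- controls.

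Of 17 genes of the Hippo core, 1 was higher and 2 were lower, Yap1 itself and Mob1a, an activator of the LATS kinases (49.4 against 69.9 CPM). Of 24 AKT and PI3K pathway genes 2 were higher and 2 lower (median -0.15), and of 14 genes that FOXO factors switch on when AKT is idle 2 and 1 (median -0.11). These small counts moved with single libraries. Left out in turn, they gave 0 to 2 higher and 1 to 4 lower in the Hippo core (all libraries but tumour replicate 3 and Mdr2-/- control replicate 4 moved a count), and 1 to 2 higher and 0 to 2 lower among FOXO genes (all 12 did). In the AKT and PI3K pathway tumour replicates 1, 2, 3, 5 and 6 and Mdr2-/- control replicates 1, 5 and 6 did, with 1 to 3 higher and 1 to 8 lower, the 8 without tumour replicate 6. Of 18 Notch pathway genes, which steer duct fate, 2 were higher and 3 lower (median -0.04), and without tumour replicates 1 to 6 or Mdr2-/- control replicate 1 or 6, each in turn, 1 to 3 were higher and 1 to 6 lower.

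Bile duct genes differed between the groups gene by gene, with list medians above healthy liver in both. Of 22 bile duct markers tested, 3 were higher and 6 lower in tumour livers than in Mdr2-/- controls, shares of the list to be read beside 13.5% and 11.9% of all genes, and the median log2 difference was -0.03. Against healthy wild-type controls, which both values share, that median was 2.49 in tumour livers and 1.91 in Mdr2-/- controls. The summed level of the list ran from 312 to 1686 CPM in tumour livers and from 277 to 572 CPM in Mdr2-/- controls. In bulk tissue, fewer cells of a type and less RNA per cell cannot be told apart.

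The 3 higher duct genes were Spp1, Wfdc2 and Pkhd1. Spp1, which codes for the secreted phosphoprotein osteopontin, read 148, 457 and 1308 CPM in tumour livers and 39.95, 92.8 and 251 CPM in Mdr2-/- controls. The lowest 2 tumour libraries overlapped the highest control, and the log2 difference was 2.54 ± 0.50 (edgeR adjusted p = 0.000808). Wfdc2, a secreted protease inhibitor of epithelia also known as HE4 in human tumours, read 16.4, 23.2 and 29.8 CPM against 2.21, 3.52 and 7.35 CPM. The groups did not overlap and the log2 difference was 2.54 ± 0.28 (edgeR adjusted p = 8.11e-07). Pkhd1, the cilium protein fibrocystin of the duct lining, read 41.8, 68.8 and 102 CPM against 27.5, 32.8 and 52.2 CPM, with 1 control above the 3 lowest tumour livers (1.03 ± 0.23). Pkhd1 is among genes chosen here after their values were seen, as are Krt7, Krt19, Sox9, Cftr, Epcam, Elf3 and Prom1.

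The keratins and the lineage factor that define ducts were not called. Krt19, a cytokeratin of cholangiocytes, read 0.859, 3.76 and 10.3 CPM in tumour livers and 1.62, 3.51 and 7.61 CPM in Mdr2-/- controls, and Krt7 read 1.17, 3.96 and 10.1 CPM against 1.52, 2.54 and 8.88 CPM. Sox9, a transcription factor of ducts and progenitors, read 6.29, 13.5 and 22.6 CPM against 7.66, 11.2 and 26.7 CPM, and Cftr, the chloride channel of bile secretion, 0.528, 3.90 and 13.7 CPM against 1.55, 2.91 and 11.5 CPM. The 95% intervals of these log2 differences ran from -0.80 to 1.33 for Krt19, -0.49 to 1.51 for Krt7, -0.72 to 0.64 for Sox9 and -0.88 to 1.58 for Cftr, so a 2-fold higher level in tumour livers lies within the intervals of Krt19, Krt7 and Cftr, and a 2-fold lower one within none of the 4. In all 4 genes, and in Spp1 and Pkhd1, tumour replicates 3, 5 and 6 held the 3 highest tumour levels and replicates 1, 2 and 4 the 3 lowest. Krt19, for example, stood at 10.3, 5.84 and 9.25 CPM in the first 3 and at 1.10, 0.859 and 1.69 CPM in the others. Healthy wild-type controls ran from 0.136 to 1.16 CPM for Krt19 and from 4.95 to 8.55 CPM for Sox9. Sox9 in tumour replicates 1, 2 and 4, at 6.29, 7.87 and 6.32 CPM, lay within its healthy range. Spp1 and Pkhd1 in these 3 replicates were above every healthy control.

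Lower members of the bile duct list included Cldn4, Cldn7, Prom1, Elf3 and Epcam. Cldn4, a tight junction protein, read 0.344, 0.833 and 2.75 CPM in tumour livers and 2.64, 3.85 and 10.2 CPM in Mdr2-/- controls, a log2 difference of -2.06 ± 0.42 (edgeR adjusted p = 0.00117). Only tumour replicate 3, at 2.75 CPM, reached the range of the controls. Cldn7, a related claudin, was lower without overlap (0.352, 1.38 and 2.48 against 3.02, 3.63 and 6.95 CPM), and so was Prom1, the progenitor surface protein CD133 (15.0, 19.5 and 32.7 against 33.0, 43.1 and 83.9 CPM). Elf3, an epithelial transcription factor, averaged 7.33 against 19.7 CPM. Epcam, the epithelial adhesion molecule, averaged 3.02 against 8.28 CPM, a call that was lost without Mdr2-/- control replicate 4 (edgeR adjusted p = 0.052), which holds its highest level of 19.9 CPM. With the nuclear RNA share in the model 3 members of the list were higher and 1 was lower, and with the title number range 3 and 3.

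**Figure D2:**
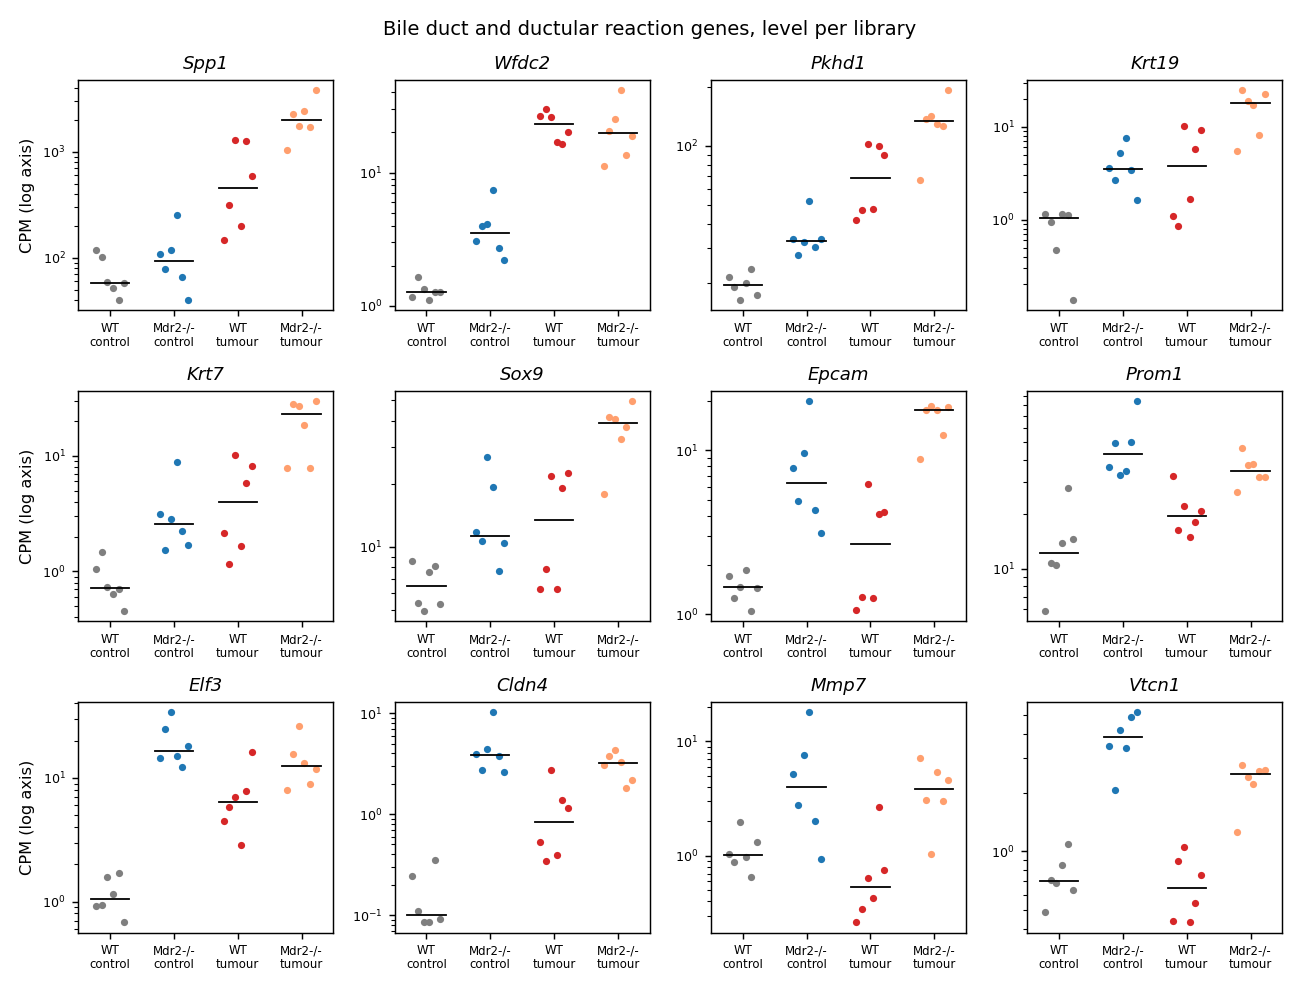
Level of 12 bile duct and ductular reaction genes in each library of the 4 groups, in CPM on a log axis; points are libraries and bars are medians of 6. Wfdc2 is higher in every tumour liver of either genotype than in any control, Krt19, Krt7 and Sox9 overlap between Mdr2-/- controls and wild-type tumours, and the medians of Cldn4, Mmp7 and Vtcn1 are higher in both Mdr2-/- groups than in both wild-type groups.

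Genes of the ductular reaction that were called were lower in tumour livers. Of 17 tested, 0 were higher and 8 lower in tumour livers, with a median log2 difference of -0.18, and leaving out single libraries left 6 to 8 lower. Without Mdr2-/- control replicate 4 there were 1 higher and 7 lower. The list's median log2 difference from healthy wild-type controls was 1.13 in tumour livers and 1.69 in Mdr2-/- controls. Vtcn1, the B7 family surface protein B7-H4, read 0.433, 0.651 and 1.05 CPM in tumour livers and 2.06, 3.85 and 5.17 CPM in Mdr2-/- controls. No library overlapped (log2 difference -2.47 ± 0.26; edgeR adjusted p = 3.47e-07). Mmp7, the matrix protease matrilysin of injured epithelium, read 0.264, 0.539 and 2.67 CPM against 0.949, 3.998 and 17.9 CPM, a difference of -2.84 ± 0.60 that ran from -3.61 to -2.14 as each library was left out. Itgb6, which together with an alpha chain activates latent TGF beta, averaged 0.886 against 2.92 CPM.

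Of 22 tested genes of EGF, FGF and MET signalling, 3 were higher, a share close to the 13.5% of all genes, and 6 were lower, beside 11.9% of all genes; without tumour replicate 2 the number lower was 3. Hbegf, a ligand of the EGF receptor, read 1.68, 2.08 and 2.89 CPM in tumour livers and 3.65, 5.29 and 5.97 CPM in Mdr2-/- controls (-1.21 ± 0.18), and Btc, the ligand betacellulin, read 4.46, 8.72 and 9.90 CPM against 11.6, 16.2 and 19.5 CPM (edgeR adjusted p = 0.00237). Both ligand genes separated the groups completely. Erbb4, a receptor that binds both ligands, went the other way, from 0.397, 0.693 and 0.968 CPM in Mdr2-/- controls to 3.72, 5.86 and 7.67 CPM in tumour livers. Its log2 difference was 3.10 ± 0.25 (edgeR adjusted p = 5.52e-09), and healthy controls averaged 1.67 CPM, between the groups. The receptor genes Egfr and Met were not called, at 256 against 347 CPM and 168 against 157 CPM.

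Several genes nearly silent in Mdr2-/- controls were expressed in every wild-type tumour liver. Slco1a6, an organic anion carrier best known from mouse kidney, read 6.15, 10.9 and 26.1 CPM in tumour livers and 0.0351, 0.184 and 0.367 CPM in Mdr2-/- controls. By the same measure it had the largest rise (log2 difference 6.18 ± 0.47; edgeR adjusted p = 5.17e-09). Sdcbp2, a PDZ protein of the syntenin family, read 7.27, 14.9 and 23.2 CPM against 0.413, 0.480 and 1.16 CPM, Pla2g5, a secreted phospholipase, 11.04, 15.0 and 20.1 CPM against 0.467, 0.700 and 1.23 CPM, and Ptgfr, the receptor of prostaglandin F2 alpha, 18.3, 29.3 and 35.1 CPM against 0.868, 1.14 and 4.54 CPM. Their log2 differences were 4.63 ± 0.39, 4.31 ± 0.34 and 4.03 ± 0.40. Spink1, a trypsin inhibitor of pancreas and some tumours, read 5.63, 8.16 and 10.53 CPM against 0.225, 0.377 and 1.74 CPM (3.72 ± 0.52), and Ang4, an antimicrobial ribonuclease of the gut, 11.2, 12.1 and 21.1 CPM against 0.751, 1.07 and 1.72 CPM (3.66 ± 0.32). Lack of overlap was part of the rule that chose these 6 genes and is a description. In Mdr2-/- tumour livers they averaged 18.8, 5.91, 16.04, 13.4, 7.85 and 4.29 CPM in the same order.

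Of 18 listed genes of kidney tubule type 8 passed the filter on low counts, and 5 of these were higher and 0 lower in tumour livers; 1 was lower without tumour replicate 1 or Mdr2-/- control replicate 2 or 3, and on log2(TPM + 1) 2 were higher and 1 lower. Slco1a6, Lrp2 and Cdh16 were too low in Mdr2-/- controls to pass the filter on those libraries, so the count is a description and supports nothing about the list. Besides Slco1a6 the higher genes included Lrp2, the endocytic receptor megalin (0.563, 2.03 and 6.13 against 0.1001, 0.165 and 0.468 CPM), Cdh16, the kidney-type cadherin (0.0880, 1.44 and 3.04 against 0.0334, 0.0878 and 0.144 CPM), and Kcnj16, a potassium channel subunit (1.93, 2.55 and 3.21 against 0.325, 0.546 and 0.868 CPM). Lrp2 and Kcnj16 did not overlap, and Cdh16 overlapped in its lowest tumour library only. The defining tubule genes Slc12a1, Aqp2 and Bsnd had 0 counts in all 12 libraries. Summed, the list reached 22.7 to 52.6 CPM in tumour livers, 12.4 to 34.5 CPM in Mdr2-/- controls and 11.7 to 20.2 CPM in healthy wild-type controls. Measured from those healthy controls, the median log2 difference of the 8 tested genes was 1.26 in tumour livers and -1.25 in Mdr2-/- controls.

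Of 14 tested genes of the fetal liver, 4 were higher and 1 lower, beside 13.5% and 11.9% of all genes. On log2(TPM + 1) 2 were higher, and none was lower without tumour replicate 1, 2, 4 or 5 or Mdr2-/- control replicate 3, 4, 5 or 6. Gpc3, the cell surface glypican used as a marker of liver cancer in humans, read 9.35, 10.3 and 18.8 CPM in tumour livers and 0.634, 1.21 and 1.72 CPM in Mdr2-/- controls, with no overlap (log2 difference 3.35 ± 0.44; edgeR adjusted p = 7.7e-06). Healthy controls averaged 1.13 CPM. Igf2bp1, a fetal RNA-binding protein, had 118 counts over the 6 tumour livers, with some in each, and 1 count over the 6 Mdr2-/- controls. Scaled for depth that is a ratio of 128 with an exact 95% interval from 22.6 to 5113, which covers counting error only. Afp, the fetal albumin, was not called (10.49 against 7.05 CPM), nor were Igf2 (1.90 against 2.22 CPM) and the long non-coding RNA H19 (6.65 against 21.5 CPM). Peg3, an imprinted zinc finger gene, was higher in tumour livers (28.2 against 13.7 CPM) but below the healthy mean of 55.9 CPM.

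Of 10 tested protease inhibitors and cornified-type epithelial genes 2 were higher and 4 lower, beside 13.5% and 11.9% of all genes. Besides Spink1, Krt4, a keratin of stratified epithelium, was higher in tumour livers at 1.46, 2.06 and 3.56 against 0.0668, 0.0893 and 0.176 CPM (4.45 ± 0.44). Krt4 was too low in Mdr2-/- controls to pass the filter on those libraries, so the count of higher genes is a description. Slpi, the secretory leukocyte protease inhibitor, read 34.5, 58.2 and 77.4 CPM in tumour livers and 138, 186 and 267 CPM in Mdr2-/- controls (-1.77 ± 0.25), above a healthy mean of 5.61 CPM in both. Sprr1a, a cornified envelope protein, read 1.14, 2.02 and 4.73 CPM against 4.20, 16.2 and 19.5 CPM (-2.46 ± 0.39). Mdr2-/- control replicate 1, at 4.20 CPM, was the only control to fall into the tumour range.

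Many lipid synthesis and storage genes were higher in tumour livers. Of 18 lipogenesis genes tested, 8 were higher and 0 lower, with a median log2 difference of 0.63. Measured from healthy wild-type controls, the list's median was 0.36 in tumour livers and -0.31 in Mdr2-/- controls. Without tumour replicate 1 or replicate 2 there were 5 higher, and with the nuclear RNA share in the model 11. Scd1, the desaturase that makes oleate, read 16963, 22086 and 32672 CPM in tumour livers and 2721, 3276 and 4616 CPM in Mdr2-/- controls. Every tumour liver exceeded every control by far, with a log2 difference of 2.78 ± 0.26 (edgeR adjusted p = 5.93e-08). Pnpla3, a lipid droplet hydrolase induced by feeding, read 9.59, 28.8 and 39.4 CPM against 3.62, 5.56 and 7.08 CPM (2.34 ± 0.43), and Acacb, the mitochondrial acetyl-CoA carboxylase, 77.9, 105.3 and 228 CPM against 24.4, 34.5 and 49.4 CPM (1.71 ± 0.36). Me1, malic enzyme, a source of NADPH, and Gpam, which starts glycerolipid synthesis, were also higher without overlap, at 243 against 97.3 CPM and 351 against 159.8 CPM. The core enzyme gene Fasn and the regulator gene Srebf1 were not called, at 851 against 639 CPM and 246 against 284 CPM. Of 20 cholesterol synthesis and uptake genes, 0 were higher and 2 lower (median -0.18). None was lower without tumour replicate 1, 2 or 5 or Mdr2-/- control replicate 1 or 6, 1 was without tumour replicate 3 or 4, and 3 were lower and 1 higher without tumour replicate 6.

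Of 14 lipid droplet genes, 6 were higher and 1 was lower in tumour livers (median 0.51). Cidec, a protein that fuses lipid droplets, read 20.1, 27.8 and 65.7 CPM in tumour livers and 2.44, 4.09 and 5.54 CPM in Mdr2-/- controls (3.05 ± 0.37; edgeR adjusted p = 2.06e-06). Its relative Cidea had 645 counts over the tumour livers, with some in all 6, and 4 over the Mdr2-/- controls. Mogat1, which acylates monoacylglycerol, read 11.4, 14.03 and 17.9 CPM against 1.37, 2.31 and 3.94 CPM (2.52 ± 0.30), and G0s2, an inhibitor of triglyceride lipase, 86.6, 111 and 227 CPM against 9.14, 16.7 and 42.9 CPM (2.51 ± 0.37). None of these genes overlapped between the groups. Healthy wild-type controls ran from 39.1 to 138 CPM for G0s2, overlapping the tumour livers. They ran from 1.88 to 3.67 CPM for Cidec and 0.861 to 1.66 CPM for Mogat1, below the tumour livers. Plin3, a ubiquitous droplet coat protein, was lower (33.9 against 56.1 CPM), and leaving out tumour replicate 6 made 3 members of the list lower. Of 10 listed adipocyte markers 4 passed the filter on low counts, and these 4 were higher. Cidea was too low in Mdr2-/- controls to pass the filter on those libraries, so counts of lists that hold it are descriptions. Fabp4, a fatty acid carrier of fat and vessel cells, averaged 20.2 against 5.11 CPM, and the other 3 are droplet genes as well. Summed, the markers reached 40.8 to 104.5 CPM in tumour livers and 7.13 to 14.5 CPM in Mdr2-/- controls. The defining markers Adipoq, Plin1 and Lep had 17, 10 and 2 counts over 6 tumour livers and 12, 18 and 4 over 6 Mdr2-/- controls, near 0.

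**Figure D3:**
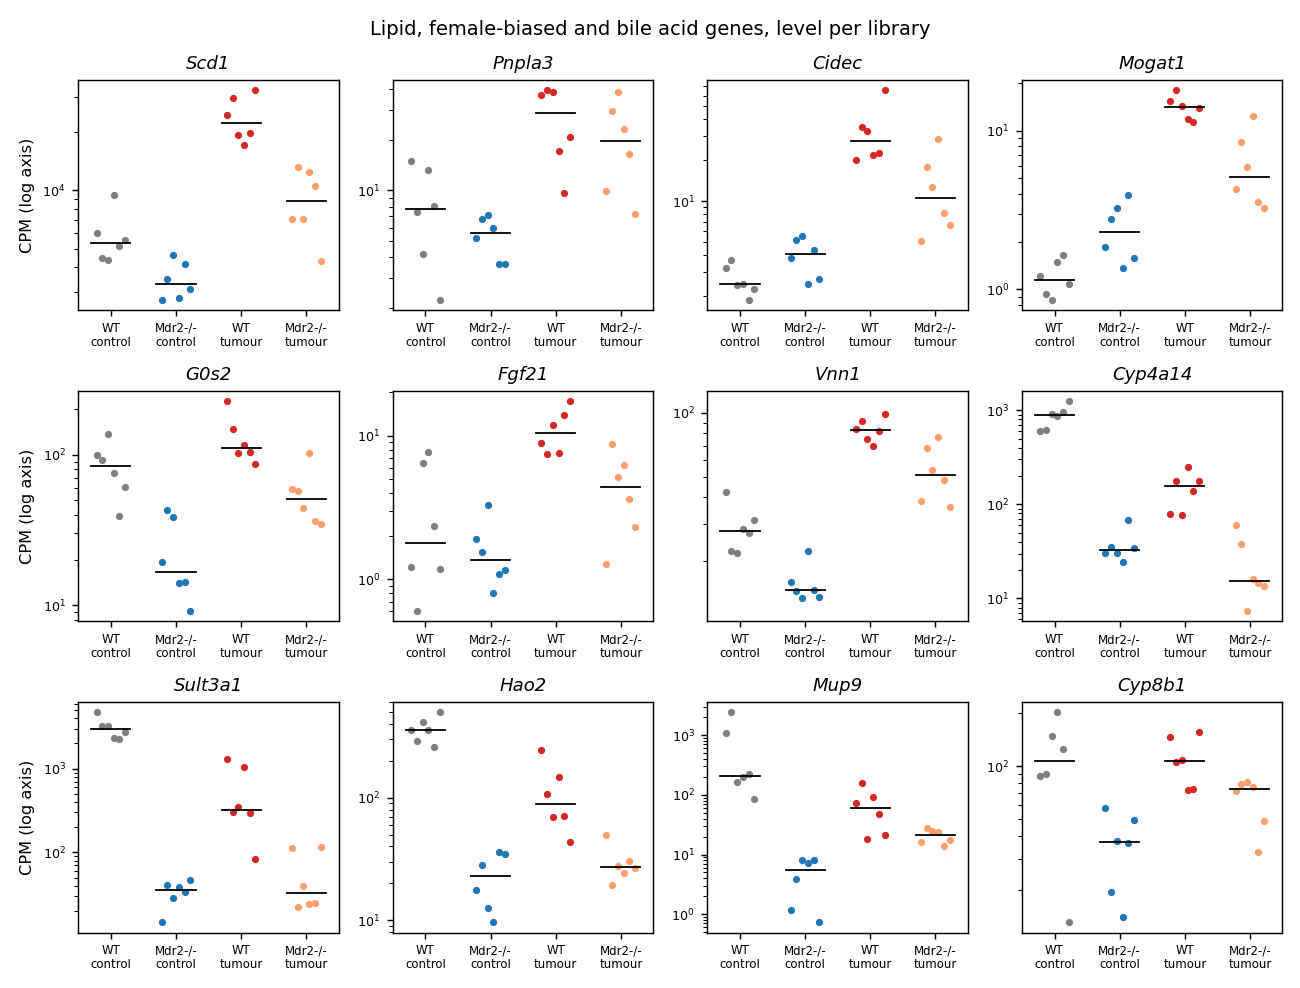
Level of 12 lipid, female-biased, major urinary protein and bile acid genes in each library of the 4 groups, in CPM on a log axis. Points are libraries and bars are medians of 6. Scd1, Cidec, Mogat1 and Vnn1 are highest in wild-type tumours, while the medians of Cyp4a14, Sult3a1, Hao2 and Mup9 are highest in wild-type controls and lowest in the 2 Mdr2-/- groups.

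Targets of PPAR alpha, the fatty acid receptor of fasting, were higher in 6 of 18 cases and lower in 0 (median 0.30). Vnn1, a pantetheinase, read 69.4, 82.8 and 98.7 CPM in tumour livers and 13.3, 14.5 and 22.3 CPM in Mdr2-/- controls (2.41 ± 0.19; edgeR adjusted p = 5.52e-09). Fgf21, a fasting hormone of the liver, read 7.46, 10.4 and 17.4 CPM against 0.801, 1.36 and 3.30 CPM (2.77 ± 0.51). Cyp4a14, a fatty acid hydroxylase, read 77.9, 158 and 248 CPM against 24.5, 32.6 and 68.7 CPM (2.01 ± 0.40), and Acot1, an acyl-CoA thioesterase, a mean of 21.1 and 6.27 CPM (1.75 ± 0.26). All 4 genes separated the groups, but they differed in their place beside healthy liver: wild-type controls averaged 28.9 and 3.25 CPM for Vnn1 and Fgf21, below the tumour livers, and 867 and 48.1 CPM for Cyp4a14 and Acot1, above both groups. The beta oxidation gene Cpt1a (335 against 271 CPM) was not called.

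Several female-biased hepatocyte genes were higher in tumour livers than in Mdr2-/- controls. Xist, which is made from the inactive X chromosome of females, was at 533 CPM or more in all 12 libraries. Of 21 female-biased liver genes 6 were higher and 1 lower (median 0.55); single libraries left out gave 4 to 6 higher, and the nuclear RNA share in the model 2. The lower one was lost without any of the tumour replicates or Mdr2-/- control replicate 1 or 6. With titles of 2000 or more, a fit with 2 Mdr2-/- controls, 0 were higher and 2 lower (median 0.25). Sult3a1, a sulfotransferase, read 82.6, 325 and 1308 CPM in tumour livers and 14.7, 36.1 and 46.4 CPM in Mdr2-/- controls. The lowest tumour liver, replicate 6, was above the highest control (4.05 ± 0.56; edgeR adjusted p = 1.34e-05), yet healthy wild-type controls averaged 3077 CPM. Hao2, a peroxisomal hydroxyacid oxidase, read 43.2, 89.2 and 245 CPM against 9.65, 22.8 and 36.1 CPM with a healthy mean of 363 CPM. The major urinary protein genes Mup18 and Mup9, carriers of pheromones, are named apart from the female-biased genes. Mup18 read 10.8, 57.3 and 126 against 0.527, 3.41 and 5.59 CPM, with a healthy mean of 366 CPM. Mup9 read 18.004, 59.5 and 159 against 0.738, 5.61 and 8.11 CPM, with a healthy mean of 693 CPM. Mup genes are near-identical copies, so the share of reads given to each is uncertain. Sult3a1, Hao2, Mup18 and Mup9 were not called among titles of 2000 or more.

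Of 18 xenobiotic P450 genes 5 were higher and 2 lower, beside 13.5% and 11.9% of all genes. Each of the 12 libraries moved one of these counts when left out, to between 2 and 6 higher and between 0 and 2 lower. Cyp2c37, an arachidonate-metabolising enzyme, read 207, 292 and 514 CPM in tumour livers and 45.6, 107 and 141 CPM in Mdr2-/- controls (1.66 ± 0.25), with no overlap and a healthy mean of 831 CPM. Of 19 NRF2 and glutathione genes 1 was higher and 5 were lower, to be read beside the same shares of all genes. These became 2 and 4 without Mdr2-/- control replicate 4, and 2 and 2 with the title number range in the model. Cbr3, a carbonyl reductase, was the higher one (2.16, 4.02 and 6.42 against 0.597, 0.801 and 1.70 CPM). The glutathione transferases Gsta2 and Gsta4 were lower, at 28.4, 37.5 and 67.5 against 77.4, 102 and 158 CPM and 54.3, 75.8 and 95.2 against 116, 149 and 179 CPM.

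Bile acid genes differed singly. Cyp8b1, the sterol 12-hydroxylase that directs synthesis to cholic acid, read 73.6, 107 and 155 CPM in tumour livers and 13.96, 37.2 and 57.7 CPM in Mdr2-/- controls (1.62 ± 0.41; edgeR adjusted p = 0.00616). The tumour livers lay around the healthy mean of 111 CPM. Cyp2c70, which makes the muricholic acids of mice, was lower in tumour livers, at 318, 564 and 739 against 901, 1078 and 1539 CPM (-1.15 ± 0.23). Cyp7a1, the rate-limiting enzyme of the pathway, was not called and ranged widely, from 186 to 370 CPM in tumour livers and 28.3 to 573 CPM in Mdr2-/- controls. Over the 16 synthesis genes 3 were higher and 2 lower, beside 13.5% and 11.9% of all genes. There was 1 lower without tumour replicate 3 or 5 or Mdr2-/- control replicate 5.

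Among 20 bile transporters 3 were higher and 5 lower, beside 13.5% and 11.9% of all genes. Without tumour replicate 6 there were 9 lower. Abcb11, the bile salt export pump, read 186, 331 and 366 CPM in tumour livers and 438, 619 and 812 CPM in Mdr2-/- controls (-0.95 ± 0.22), against a healthy mean of 798 CPM. Slc51b, a subunit of the basolateral bile acid exporter that is induced in cholestasis, read 0.863, 2.01 and 2.82 CPM against 6.53, 14.4 and 30.5 CPM. The groups did not overlap, with a log2 difference of -3.02 ± 0.37 (edgeR adjusted p = 2.34e-06), and the healthy mean was 1.38 CPM. The uptake carrier Slco1a1 was higher in tumour livers (1279.9 against 728 CPM). Slc10a1, the main bile salt uptake carrier, was not called (229 against 266 CPM). Of 9 bile acid sensing genes 1 was lower, or 3 and 2 without tumour replicate 6 and Mdr2-/- control replicate 6 in turn, and the receptor gene Nr1h4 read 87.9 and 86.0 CPM.

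Other genes that marked Mdr2-/- controls were far below them in tumour livers. Cib3, a calcium-binding protein, read 2.42, 6.02 and 8.90 CPM in tumour livers and 45.2, 78.7 and 108 CPM in controls (-3.76 ± 0.34). Cxcl14, a chemokine of epithelia, read 2.29, 3.08 and 6.62 CPM against 20.1, 26.8 and 101 CPM (-3.49 ± 0.37), and Ptgds, a prostaglandin D2 synthase, 0.759, 1.92 and 2.75 CPM against 11.7, 20.5 and 25.1 CPM (-3.37 ± 0.36). Slc13a5, the citrate importer, read 2.90, 3.47 and 7.04 CPM against 19.4, 33.9 and 37.3 CPM (-2.87 ± 0.23), and Itih5, a hyaluronan-binding protein, 5.37, 9.18 and 15.6 CPM against 45.8, 56.6 and 112 CPM (-2.80 ± 0.24). Dhrs9, a retinol dehydrogenase, Myo7b, a brush border myosin, and Dnah1, a dynein chain, were also among the largest falls, at 0.411, 0.768 and 0.514 CPM against 5.99, 8.63 and 5.85 CPM. Lack of overlap was part of the rule that chose these 8 genes and is a description. In tumour livers Cib3 and Myo7b were called higher than in healthy controls, and the other 6 were not called.

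Hepatocyte export genes were lower in part. Of 20 secreted proteins and lineage factors 2 were higher and 7 lower in tumour livers (median -0.33), and their summed level ran from 61762 to 101802 CPM and from 88192 to 104928 CPM in Mdr2-/- controls. Ahsg, fetuin A, read 3348, 3891 and 5576 CPM in tumour livers and 6406, 8323 and 11832 CPM in Mdr2-/- controls (-1.08 ± 0.20), and transferrin, listed as Trf, 4029, 4552 and 6179 CPM against 7267, 8242 and 10273 CPM (-0.81 ± 0.15). The apolipoprotein gene Apoa2 was higher, at 2716, 3798 and 4321 against 1794, 2091 and 2577 CPM. Alb, the serum albumin, was not called (48638 against 60642 CPM; 95% interval of the log2 difference -0.67 to 0.04). With the nuclear RNA share in the model 1 member was higher and 3 were lower.

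Many genes of nitrogen metabolism were lower. Of 16 urea cycle and gluconeogenesis genes 0 were higher and 8 lower (median -0.61), with 7 to 10 lower as single libraries were left out and 3 with the nuclear RNA share in the model. Without tumour replicate 3 or 6 there was 1 higher. Ass1, argininosuccinate synthase, read 966, 1479 and 1769 CPM in tumour livers and 2624, 3401 and 4098 CPM in Mdr2-/- controls, which lay near the healthy mean of 2829 CPM. The log2 difference was -1.26 ± 0.20 (edgeR adjusted p = 8.8e-05). Cps1, the entry enzyme of the cycle, read 1853, 3586 and 4571 CPM against 4971, 6174 and 7786 CPM, and Gls2, the liver glutaminase, 65.7, 117 and 141 CPM against 166, 249 and 340 CPM (-1.20 ± 0.20). Arg1, arginase, was not called (1886 against 1142 CPM). Oat, a pericentral aminotransferase of ornithine, read 116, 148 and 176 CPM against 179.9, 366 and 524 CPM (-1.27 ± 0.23), and the other pericentral enzyme of ammonia capture, Glul, was not called (373 against 476 CPM). Of the glycolysis genes few were called, with 0 of 21 higher and 1 lower, which became 4 without tumour replicate 6 and 0 without tumour replicate 2, 4 or 5 or Mdr2-/- control replicate 1 or 6.

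Acute phase proteins, which the liver secretes in inflammation, were mostly lower or not called: 1 of 21 was higher and 9 were lower (median -0.43), and each of the 12 libraries moved the first count, to 0 or 2, when left out, with 6 to 10 lower. Hp, haptoglobin, read 1711.3, 1876 and 2667 CPM in tumour livers and 3619.9, 4862 and 5232 CPM in Mdr2-/- controls (-1.19 ± 0.17; edgeR adjusted p = 1.57e-05). Both stood above the healthy mean of 856 CPM. The list's median log2 difference from healthy wild-type controls was instead -0.41 in tumour livers and -0.24 in Mdr2-/- controls. Summed, the list ran from 24898 to 37467 CPM in tumour livers and from 45026 to 51549 CPM in Mdr2-/- controls. Healthy controls ran from 29732 to 48389 CPM. C3, the central complement protein, read 5114, 6559.7 and 12629.6 CPM against 12674, 14473 and 20874 CPM (-1.13 ± 0.20), and Hpx, the haem carrier hemopexin, 4679, 5686 and 6110.5 CPM against 7526, 10493 and 13352 CPM. Of 20 genes of the unfolded protein and integrated stress responses 4 were higher and 7 lower, or 2 and 2 with the nuclear RNA share in the model and 3 and 1 with the title number range. The chaperones Hspa5 and Hyou1 were lower (454 against 939 CPM and 126 against 280.2 CPM). Chac1, a glutathione-degrading target of ATF4, was higher (2.55, 3.36 and 5.52 against 0.527, 0.711 and 2.29 CPM), as were the serine synthesis genes Psat1 and Phgdh, at 4.79 against 1.56 CPM and 2.38 against 0.827 CPM.

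**Figure D4:**
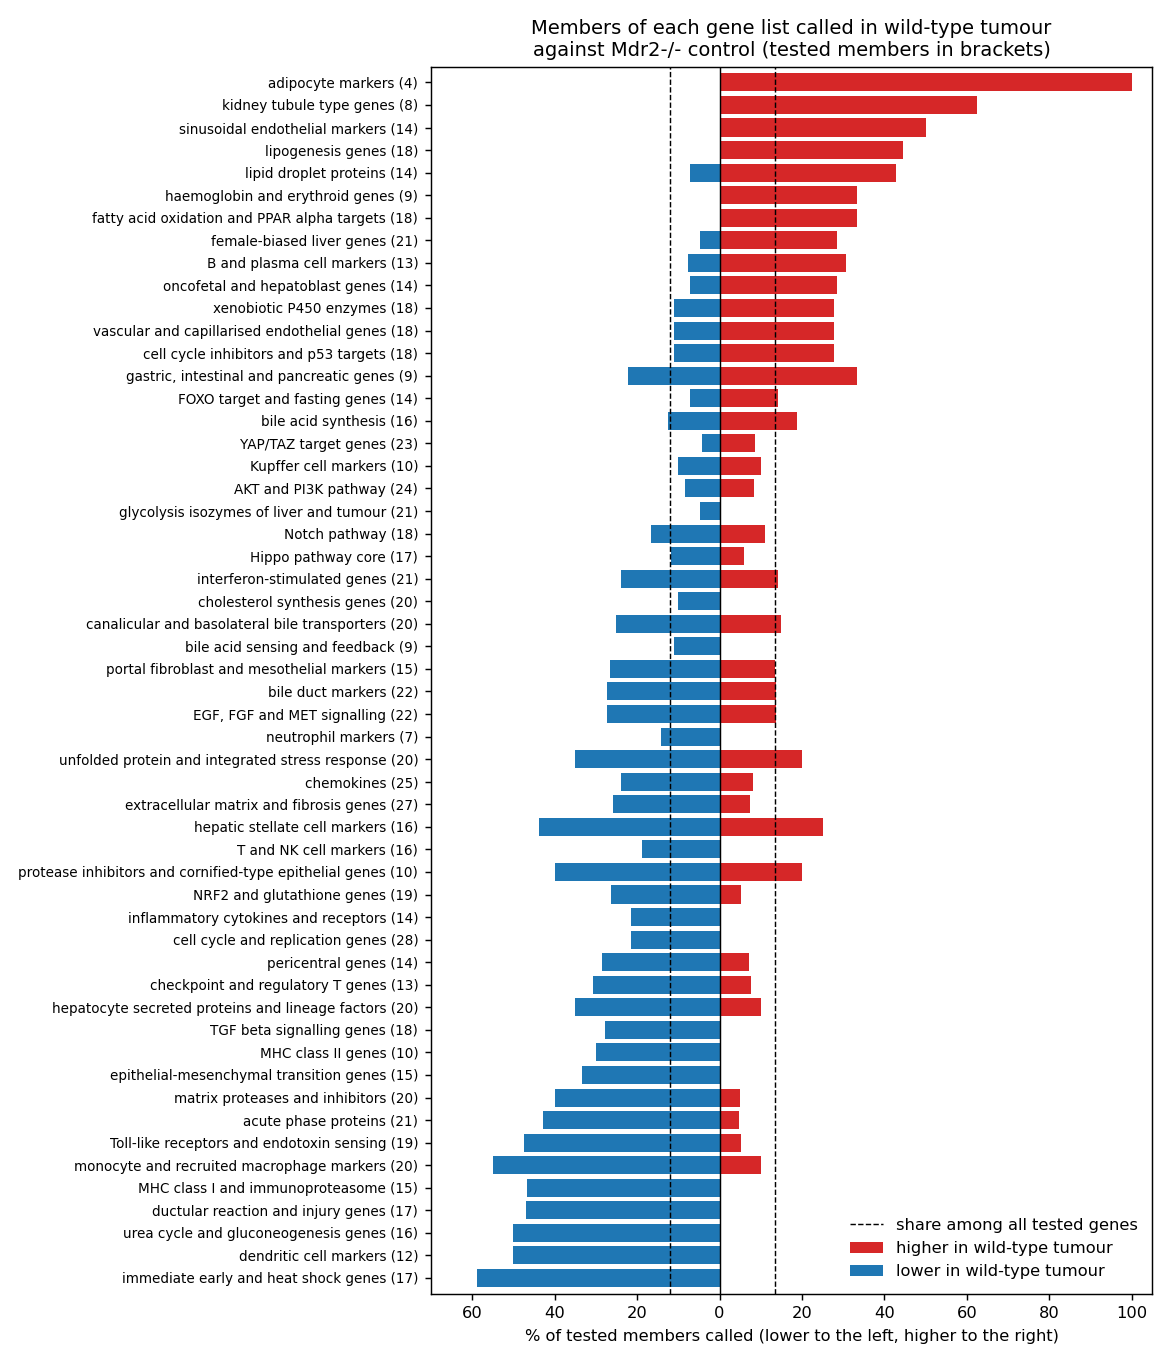
Share of the tested members of each gene list called higher (red, to the right) or lower (blue, to the left) in wild-type tumour livers than in Mdr2-/- controls, in percent, with the number of tested members in brackets; dashed lines mark the shares among all 17216 genes, 13.5% higher and 11.9% lower. The adipocyte, kidney-type and sinusoidal endothelial lists reach furthest to the right, and the immediate early and recruited macrophage lists furthest to the left. Only 4 of 10 listed adipocyte genes and 8 of 18 kidney-type genes were tested, and their bars are descriptions.

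Of 28 cell cycle genes 0 were higher and 6 lower, beside 11.9% of all genes (median -0.30); leaving out tumour replicate 3 gave 10 lower, Mdr2-/- control replicate 5 gave 3, and the nuclear RNA share in the model 2. There was 1 higher without tumour replicate 6 or Mdr2-/- control replicate 2. Ccnd1, the cyclin that carries hepatocytes out of quiescence, read 84.6, 113 and 159 CPM in tumour livers and 182, 313 and 444 CPM in Mdr2-/- controls. The groups did not overlap (-1.44 ± 0.21; edgeR adjusted p = 2.78e-05), and healthy livers averaged 107 CPM. The other 5 were subunits of the MCM helicase that opens DNA at origins. Mcm6 read 9.32, 14.03 and 23.9 CPM in tumour livers and 16.5, 30.9 and 41.8 CPM in Mdr2-/- controls (-0.99 ± 0.26; edgeR adjusted p = 0.00898). Mcm3, Mcm4, Mcm5 and Mcm7 averaged 17.8, 14.7, 14.7 and 19.1 CPM against 27.6, 25.7, 24.3 and 28.2 CPM, and overlapped. Without Mdr2-/- control replicate 5 the edgeR adjusted p was 0.0849 for Mcm3, 0.0607 for Mcm4 and 0.0607 for Mcm5. Mcm3 and Mcm5 were also lost without tumour replicate 2 (edgeR adjusted p = 0.0623 and 0.0638), 4 (0.0575 and 0.0574) or 5 (0.0597 and 0.0552), and Mcm3 without Mdr2-/- control replicate 6 (0.0588). None of the 5 was called with the nuclear RNA share in the model. Mki67, the proliferation marker, was not called (6.67, 13.95 and 24.3 against 8.86, 18.5 and 23.7 CPM).

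The 250 bases before the start site of 3 of the lower MCM genes are shown because they share a motif. Capitals mark matches to TTTGGCGC, TTTCCCGC, TTTGCCGC or TTTCGCGC on either strand, forms of the site bound by E2F factors in S phase genes; where 2 matches overlap they run together. Sequences are from RefSeq on GRCm38.p6, a different build from the mm39 of the files, on the strand of the gene.
Mcm5, chr8:75109259-75109508, plus strand: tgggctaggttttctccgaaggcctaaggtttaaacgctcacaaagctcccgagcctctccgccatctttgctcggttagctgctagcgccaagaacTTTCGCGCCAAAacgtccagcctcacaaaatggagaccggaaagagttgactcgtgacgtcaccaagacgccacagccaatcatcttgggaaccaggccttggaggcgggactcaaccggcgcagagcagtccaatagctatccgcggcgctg
Mcm6, chr1:128359706-128359955, minus strand: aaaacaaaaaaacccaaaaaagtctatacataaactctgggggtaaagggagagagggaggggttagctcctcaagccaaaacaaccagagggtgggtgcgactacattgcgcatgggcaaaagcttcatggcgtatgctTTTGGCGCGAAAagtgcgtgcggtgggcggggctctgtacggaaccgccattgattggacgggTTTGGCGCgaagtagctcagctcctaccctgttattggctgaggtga
Mcm7, chr5:138171884-138172133, minus strand: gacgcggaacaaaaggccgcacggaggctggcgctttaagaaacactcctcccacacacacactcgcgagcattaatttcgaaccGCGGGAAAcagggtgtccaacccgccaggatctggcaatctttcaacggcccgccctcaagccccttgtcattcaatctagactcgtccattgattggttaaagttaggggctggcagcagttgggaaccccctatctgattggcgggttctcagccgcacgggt
Mcm5 held 2 overlapping matches, Mcm6 held 3 and Mcm7 held 1. Of the 22 cell cycle genes with a promoter in the table, 5 held a match, and so did 2.16% of all 27025 genes. Of the 4 of those 22 that were lower in tumour livers 3 held one. A match of letters is a description and says nothing of binding.

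Among 18 cell cycle inhibitors and p53 targets 5 were higher and 2 lower (median 0.40), or 2 and 2 with the nuclear RNA share in the model. Cdkn1c, an imprinted inhibitor of cyclin kinases, read 3.96, 4.55 and 5.90 CPM in tumour livers and 2.10, 2.60 and 3.04 CPM in Mdr2-/- controls, and Bax, which opens mitochondria in apoptosis, 20.4, 33.2 and 40.3 CPM against 12.5, 20.1 and 25.2 CPM. Btg2, an antiproliferative immediate early gene, was lower (22.1 against 45.3 CPM). Cdkn1a, the p21 inhibitor, was not called (42.9 against 35.1 CPM).

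Most immediate early genes tested, which cells switch on within minutes of a stimulus, were lower in tumour livers. Of 17 immediate early and heat shock genes 0 were higher and 10 lower (median -0.85), with 8 to 12 lower as single libraries were left out and 5 with either the nuclear RNA share or the title number range in the model. Egr1, a zinc finger factor, read 4.36, 6.79 and 16.5 CPM in tumour livers and 28.7, 36.8 and 64.9 CPM in Mdr2-/- controls. No library overlapped (-2.40 ± 0.49; edgeR adjusted p = 0.0012), though with the nuclear RNA share in the model the edgeR adjusted p was 0.0507. Fos and Fosb, partners of Jun in AP-1, read 1.48, 3.24 and 4.49 against 6.395, 11.7 and 24.2 CPM and 0.0417, 0.314 and 0.483 against 0.843, 3.27 and 4.26 CPM. Nr4a1, an orphan nuclear receptor, read 1.10, 1.40 and 1.69 CPM against 3.41, 6.22 and 18.7 CPM (-2.50 ± 0.34). Junb and Egr2 were lower without overlap (20.6 against 43.8 CPM and 0.484 against 1.86 CPM), and Jun was not called (49.9 against 76.1 CPM).

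Egr2 is shown as an example of a lower gene with a CArG box. Capitals mark that box, the site that serum response factor binds.
Egr2, chr10:67537316-67537565, plus strand: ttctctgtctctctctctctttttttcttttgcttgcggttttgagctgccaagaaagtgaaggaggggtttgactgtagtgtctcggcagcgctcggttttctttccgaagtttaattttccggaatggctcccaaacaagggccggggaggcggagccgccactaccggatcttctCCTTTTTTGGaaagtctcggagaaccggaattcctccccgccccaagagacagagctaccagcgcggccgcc
The window is that of the MCM genes, on GRCm38.p6. Of 14 immediate early and heat shock genes with a promoter in the table, 2 held a CArG box within these 250 bases, and both were lower in tumour livers. The box was found in 1.62% of all genes.

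Scar and matrix genes were lower in tumour livers for some members. Of 27 matrix and fibrosis genes 2 were higher and 7 lower (median -0.47), or 13 and 11 lower without tumour replicate 3 or 6. Both groups lay above healthy wild-type controls by the list's median, at 1.41 in tumour livers and 2.00 in Mdr2-/- controls. Bgn, the proteoglycan biglycan, read 88.8, 130.3 and 226 CPM in tumour livers and 290, 387 and 498 CPM in Mdr2-/- controls (-1.46 ± 0.23; edgeR adjusted p = 7.47e-05). The lowest Mdr2-/- control exceeded the highest tumour liver. Postn, the stromal protein periostin, went the other way, at 18.2, 23.004 and 38.7 against 4.60, 5.82 and 12.02 CPM (1.86 ± 0.23). The fibrillar collagen genes Col1a1 and Col3a1 were not called, at 20.7, 34.5 and 108 against 38.7, 80.4 and 137 CPM and 131, 241 and 501 against 164, 213 and 484 CPM. The collagen VI chain genes Col6a1, Col6a2 and Col6a3 were lower, Col6a1 at 10.9 against 25.6 CPM.

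Of 20 matrix proteases and inhibitors 1 was higher and 8 were lower (median -0.51), with 8 to 10 lower as single libraries were left out. From healthy wild-type controls the list's median was 0.99 in tumour livers and 2.15 in Mdr2-/- controls. Mmp2, a gelatinase of fibroblasts, read 4.22, 5.77 and 8.02 CPM in tumour livers and 8.18, 17.1 and 25.3 CPM in Mdr2-/- controls, Mmp12, the macrophage elastase, 4.90, 11.3 and 19.7 CPM against 22.03, 31.4 and 44.1 CPM, and Mmp15, a membrane-bound protease, 21.3, 25.7 and 83.2 CPM against 83.8, 105.3 and 185 CPM. Their log2 differences were -1.58 ± 0.24, -1.51 ± 0.29 and -1.80 ± 0.32. Of 16 stellate cell markers 4 were higher and 7 lower (median -0.02), beside 13.5% and 11.9% of all genes. The lower members given next are a part of the list, and the higher ones are not all named. Pdgfrb, the receptor by which stellate cells respond to PDGF, read 14.8, 16.7 and 29.2 CPM against 35.1, 50.9 and 83.4 CPM (-1.38 ± 0.22), and Cygb, cytoglobin, 8.58, 11.4 and 20.8 CPM against 23.8, 32.0 and 46.1 CPM (-1.31 ± 0.19). Neither gene overlapped. Acta2, the smooth muscle actin of activated stellate cells and vessels, was higher at 0.996, 4.05 and 18.96 against 1.31, 1.85 and 2.99 CPM, but the call rested on tumour replicate 3 with 18.96 CPM and was lost without it (edgeR adjusted p = 0.11).

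Portal fibroblast and mesothelial markers were 2 higher and 4 lower of 15. Entpd2, an ectonucleotidase of portal fibroblasts, read 2.44, 3.27 and 4.80 CPM in tumour livers and 10.7, 14.6 and 18.2 CPM in Mdr2-/- controls (-2.03 ± 0.17), and Upk3b, a marker of mesothelium, 0.863, 1.79 and 4.84 CPM against 0.1001, 0.257 and 0.433 CPM (3.25 ± 0.48). Of 18 TGF beta signalling genes 0 were higher and 5 lower, or 3 lower without tumour replicate 2 or 5, with 1 higher without Mdr2-/- control replicate 4. Tgfbr2, the ligand-binding receptor, read 30.6, 41.9 and 64.5 CPM against 63.9, 84.98 and 114 CPM, and Ltbp1, which tethers the latent ligand to matrix, 4.19, 5.34 and 6.73 CPM against 7.44, 12.6 and 13.9 CPM. Cdh1, the epithelial cadherin of hepatocytes and ducts, read 50.5, 82.8 and 148 CPM in tumour livers and 235, 264 and 325 CPM in Mdr2-/- controls (-1.62 ± 0.24; edgeR adjusted p = 3.09e-05). Vim, the mesenchymal filament, was not called (74.3 against 60.6 CPM). The stellate cell list summed to 626 to 787 CPM in tumour livers and 661 to 873 CPM in Mdr2-/- controls, and its part in the matrix differences was not tested.

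Many recruited macrophage genes were lower in tumour livers, while the resident Kupffer cell marker Clec4f was not called. Of 20 monocyte and recruited macrophage markers 2 were higher and 11 lower (median -0.67); without tumour replicate 4 or Mdr2-/- control replicate 4 there were 7 lower, and with the nuclear RNA share in the model 11. The higher ones were Spp1, also a duct gene, and Fabp5. With the title number range in the model 5 were lower. The list's median log2 difference from healthy wild-type controls was 1.32 in tumour livers and 1.87 in Mdr2-/- controls. Cx3cr1, the fractalkine receptor of monocyte-derived cells, read 3.77, 6.48 and 13.5 CPM in tumour livers and 13.7, 29.2 and 40.2 CPM in Mdr2-/- controls (-1.97 ± 0.29; edgeR adjusted p = 2.85e-05). Trem2, a lipid receptor of scar-associated macrophages, read 1.10, 1.41 and 4.01 CPM against 4.01, 5.24 and 9.99 CPM, and Gpnmb, a glycoprotein of the same cells, 0.709, 1.26 and 2.47 CPM against 3.27, 4.69 and 11.98 CPM. Cd68, a lysosomal protein of phagocytes, read 8.57, 10.6 and 16.7 CPM against 25.3, 26.9 and 29.7 CPM, and Lyz2, lysozyme, 88.5, 211 and 335 CPM against 245, 397 and 629.8 CPM. Trem2 and Lyz2 overlapped, the other 3 genes did not.

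**Figure D5:**
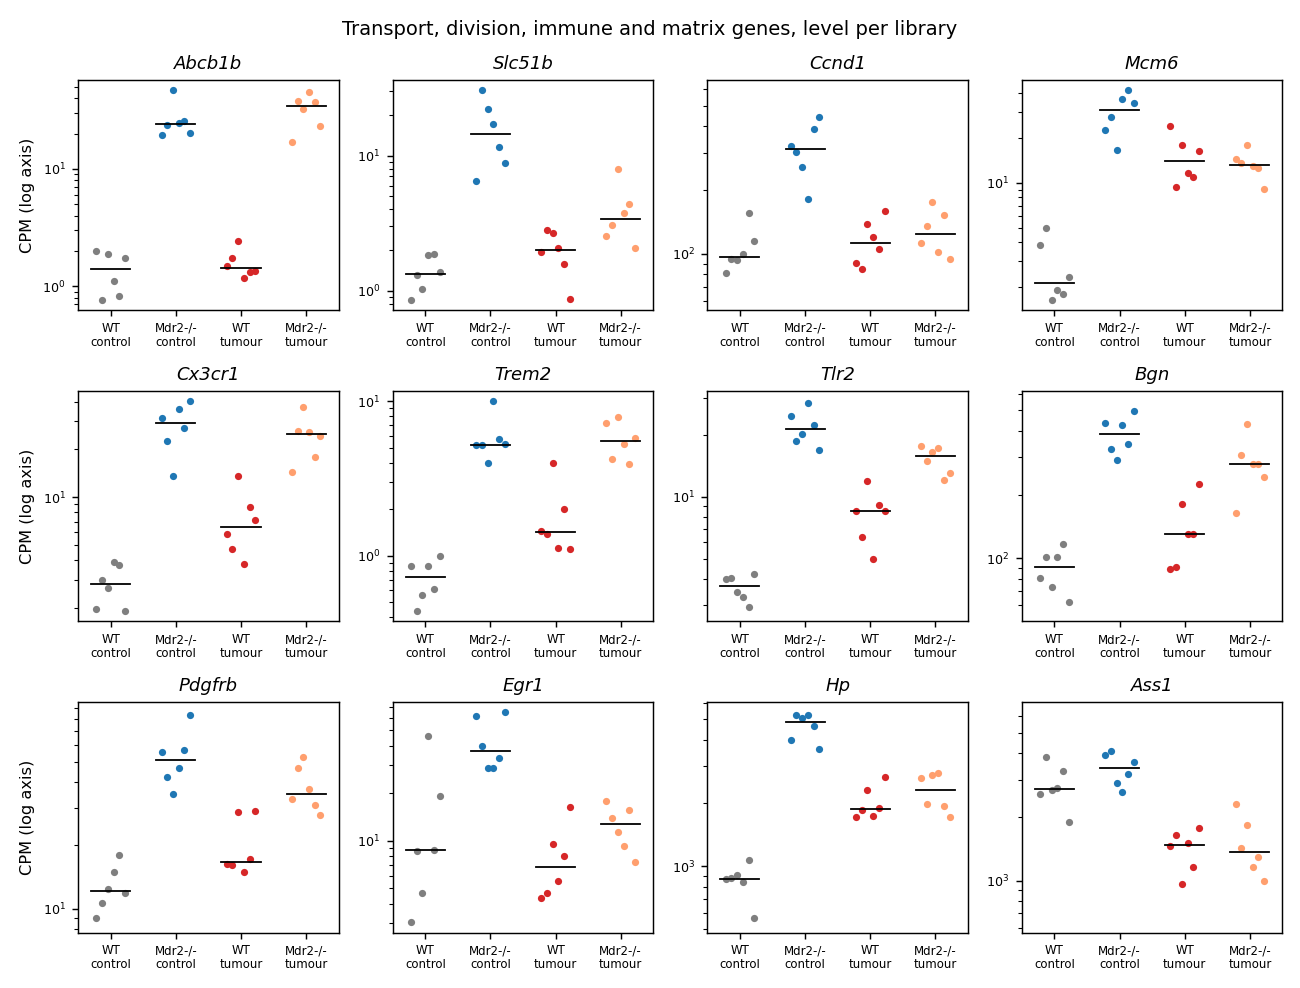
Level of 12 transport, division, immune, matrix and liver function genes in each library of the 4 groups, in CPM on a log axis; points are libraries and bars are medians of 6. Abcb1b and Slc51b of wild-type tumours lie at the wild-type control level, Cx3cr1, Tlr2 and Pdgfrb lie between the wild-type and Mdr2-/- controls, and Ass1 lies below both.

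Clec4f, a lectin of Kupffer cells, read 140, 181 and 233 CPM in tumour livers and 97.1, 157 and 198 CPM in Mdr2-/- controls. Of 10 Kupffer cell markers 1 was higher and 1 lower, or 3 and 4 without tumour replicate 6 and 1 and 2 without Mdr2-/- control replicate 5. C6, a protein of the complement membrane attack complex, was lower at 30.4, 45.1 and 104 against 211, 229 and 411 CPM (-2.24 ± 0.26; edgeR adjusted p = 1.3e-06). Cd163, the haemoglobin scavenger receptor, was higher at 4.89, 9.50 and 12.8 against 1.26, 2.54 and 5.11 CPM (1.67 ± 0.34), with a healthy mean of 12.3 CPM.

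Genes that sense bacterial products were lower in part. Of 19 Toll-like receptor and endotoxin genes 1 was higher and 9 were lower (median -0.55), with 8 to 11 lower as single libraries were left out. Tlr2, the receptor of bacterial lipopeptides, read 4.98, 8.53 and 11.9 CPM in tumour livers and 16.8, 21.2 and 28.4 CPM in Mdr2-/- controls (-1.40 ± 0.17; edgeR adjusted p = 2.35e-06). Myd88, the shared adaptor, read 7.74, 8.97 and 12.5 CPM against 16.4, 17.1 and 17.5 CPM. Tlr5, the flagellin receptor, was the higher member, at 6.62, 7.35 and 16.97 against 1.95, 2.85 and 5.27 CPM. Tlr4, the endotoxin receptor itself, was not called (12.7 against 10.1 CPM).

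Of 25 chemokines 2 were higher and 6 lower, beside 13.5% and 11.9% of all genes. There were 3 lower without tumour replicate 4 or Mdr2-/- control replicate 3, 1 higher without tumour replicate 3 or 5 or Mdr2-/- control replicate 5 or 6, and 4 higher without tumour replicate 6. Among titles of 2000 or more 3 were higher and 2 lower. Besides Cxcl14, Cx3cl1, the ligand of Cx3cr1, was lower at 1.56, 2.72 and 4.65 against 5.94, 7.98 and 12.8 CPM (-1.49 ± 0.23). Csf1, the growth factor of macrophages, averaged 17.5 CPM in tumour livers and 31.9 CPM in Mdr2-/- controls, without overlap (-0.87 ± 0.17). Il6 and Il10 did not pass the filter on low counts, and Tnf and Il1b were not called, at 0.881 against 1.27 CPM and 3.64 against 4.94 CPM.

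Antigen presentation genes were lower in part, by small amounts. Of 15 MHC class I and immunoproteasome genes 0 were higher and 7 lower (median -0.45). The heavy chain genes H2-K1 and H2-D1 read 323, 336 and 425 against 450.3, 489 and 515 CPM and 527, 571 and 736 against 771, 833 and 918 CPM, without overlap, and were above healthy means of 256 and 491 CPM in both groups. H2-T23, a non-classical chain that engages NK receptors, read 30.4, 33.2 and 41.4 CPM against 46.4, 53.8 and 58.1 CPM, and Tap2, a subunit of the peptide transporter, 15.9, 17.4 and 35.5 CPM against 31.8, 37.4 and 49.8 CPM. Near-identical class I genes can share reads. Of 10 class II genes 3 were lower, or 6 without tumour replicate 3, among them Cd74, the invariant chain (93.5, 118 and 244 against 267, 301 and 341 CPM). Of 12 dendritic cell markers 6 were lower, or 3 without tumour replicate 1 or 2, with 1 higher without Mdr2-/- control replicate 5. Among titles of 2000 or more no class II gene or dendritic cell marker was called.

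Of 16 T and NK cell markers 0 were higher and 3 lower, beside 13.5% and 11.9% of all genes, or 6 lower without tumour replicate 6 and 2 higher without Mdr2-/- control replicate 2. None was called with the nuclear RNA share in the model. Cd8a, the co-receptor of cytotoxic T cells, read 0.275, 0.510 and 1.66 CPM in tumour livers and 0.938, 1.37 and 6.90 CPM in Mdr2-/- controls. Of 13 B and plasma cell markers 4 were higher and 1 lower, and 2 higher without tumour replicate 1 or 3 or Mdr2-/- control replicate 1, 2 or 6. The lower count became 2 without tumour replicate 3 and 0 without tumour replicate 1, 2 or 5 or Mdr2-/- control replicate 1, 5 or 6. None was higher with the nuclear RNA share in the model, on log2(TPM + 1) or among titles of 2000 or more. Ighg1, an antibody heavy chain, was the widest spread of them, at 0.584, 6.499 and 25.4 CPM against 1.08, 1.76 and 3.75 CPM, and tumour replicates 1, 3 and 5 were above every control. Jchain, which joins antibody units, read 1.38, 5.79 and 12.6 CPM against 1.44, 1.88 and 2.74 CPM, highest in the same 3 tumour livers. Of 21 interferon-stimulated genes 3 were higher and 5 lower, to be read beside the same shares of all genes. Without tumour replicate 4 or 5 there were 3 lower, and without replicate 6 there were 5 higher. Oasl1 was lower (1.73, 3.59 and 6.52 against 9.68, 12.9 and 21.2 CPM) and Ifit2 higher (9.91, 15.6 and 25.9 against 5.71, 8.31 and 9.10 CPM). The neutrophil gene S100a8 was not called (2.29 against 2.15 CPM).

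Sinusoidal endothelial markers were higher in part. Of 14 tested, 7 were higher and 0 lower (median 0.39), with 5 to 8 higher as single libraries were left out and 3 with the nuclear RNA share in the model. Without tumour replicate 6 or Mdr2-/- control replicate 4 there was 1 lower. F8, coagulation factor VIII, which these cells make, read 58.5, 108 and 118 CPM in tumour livers and 36.3, 41.5 and 47.7 CPM in Mdr2-/- controls (1.24 ± 0.20; edgeR adjusted p = 8.93e-05). Healthy controls averaged 84.5 CPM. Cd36, a fatty acid receptor also found on hepatocytes, read 279, 381 and 451 CPM against 155, 226 and 269 CPM. Of 18 vascular endothelial genes 5 were higher and 2 lower, or 3 higher without tumour replicate 1 and 1 lower without Mdr2-/- control replicate 6. On log2(TPM + 1) there were 1 higher and 2 lower. Esm1, a marker of sprouting tip cells, read 0.693, 1.74 and 4.65 CPM against 0.0703, 0.324 and 0.600 CPM (2.64 ± 0.50). The pan-endothelial genes Pecam1 and Cdh5 were not called, at 30.7 against 33.2 CPM and 60.3 against 54.3 CPM. The haemoglobin gene Hbb-bs was also higher, at 258, 745 and 1064 against 78.4, 202 and 371 CPM. The red cell gene Alas2 was not called, at 498 against 479 CPM. The part of blood in these differences was not tested.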

How the data were processed

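Libraries were paired-end and made from total RNA of whole mouse liver after ribosomal RNA removal by a kit named for bacteria, per the labels' protocols. The authors deposited a table of raw read counts per gene, which gave all main results, and a table of TPM values, used in alternatives only. Per the submitters' processing notes the genome build was mm39 and DESeq2 was used; no source used here gives the aligner, the counting, its strand setting or the annotation, so overlapping and antisense genes may share reads.

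All 24 libraries entered 1 edgeR 4.0.16 model (R 4.3.3) with TMM factors, filterByExpr with a minimum count of 10, robust quasi-likelihood estimation and a mean per group. The contrast was CCA.Wild-type minus Ctrl.Mdr2-/-, so that a positive log2 difference means a higher level in tumour livers, and p-values were Benjamini-Hochberg adjusted over 17216 genes and called under 0.05. Some genes, such as Krt4, Igf2bp1, Cidea, Upk3b and Esm1, were too low in Mdr2-/- controls to pass the filter on those libraries. Their calls, and their part in the counts of their lists, are descriptions. Intervals are at 95% and, for ratios of counts, cover counting error only. The 174 genes without a symbol held at most 0.0161% of the counts in the 12 libraries. No source says whether the libraries came from separate animals beyond being individual tissues, so p-values measure the spread between them. Replicate pairs were further apart than counting error (chi-square per gene from 32.7 to 277.5 over 30 pairs).

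The comparison and all gene lists were chosen with earlier results of these data known. Genes named are Abcb4, Akt1, Yap1, the 12 largest rises and falls of at least 5 CPM without overlap, and, from each list, the 4 called members of at least 1 CPM that changed most with the largest in the other direction; not every gene that met this rule is printed, and some results are not reported here. A further 62 of the 183 genes with a test in the text lie outside it and were chosen after their values were seen. They are genes given as not called, and Cd36, Cd68, Col6a2, Col6a3, Cps1, Crot, Egr2, Elf3, Epcam, Fabp5, Gpam, H2-D1, H2-K1, Hpx, Hspa5, Hyou1, Igf2bp1, Junb, Lyz2, Mcm3, Mcm7, Myd88, Pkhd1, Prom1, Slco1a1, Slpi and Tmem243. Data were simulated for all 24 libraries from the mean levels of the Mdr2-/- controls, with genes changed in the tumour libraries. The model called 37 of 50 genes raised 2-fold, 36 of 50 lowered 2-fold, 50 of 50 changed 4-fold either way and 8 of 16010 unchanged genes. The spread was that fitted over all 4 groups, so the larger spread among tumour livers was not simulated. Alternatives were 28 other fits, 12 of which left out 1 library. They used limma 3.58.1 and DESeq2 1.42.0, and tables were computed with Python 3.11.15, scipy 1.17.1 and statsmodels 0.14.6.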

Additional observations from a re-analysis of the deposited data

Results flagged for a closer look

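Of 374 groups of 6 libraries checked over the genes and shares in the text, 24 held a library whose gap to its nearest neighbour, as a share of the whole range (of log2 levels for genes), passed Dixon's 95% critical value for 6 samples. By that definition chance gives about 1 in 20 groups. Values are CPM, followed by the range of the other 5.

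Wild-type tumour replicate 6 gave 9 of them. It was high for Myo7b at 2.07 (0.396 to 0.585), Acacb at 228.3 (77.9 to 114), Mmp15 at 83.2 (21.3 to 26.7), Tap2 at 35.5 (15.9 to 21.1) and Tlr5 at 16.97 (6.62 to 7.95). It was also high for Cpt1a at 521 (269.8 to 327) and Glul at 716 (256 to 361), and low for Tlr4 at 6.55 (12.6 to 15.5). Its share of nuclear non-coding RNAs was 2.30% (5.51 to 6.51%). Wild-type tumour replicate 3 was low for Abcb11 at 186 (298 to 366), Cps1 at 1853 (3479 to 4571) and Nr1h4 at 67.2 (86.3 to 95.9), and high for Tnf at 1.56 (0.619 to 0.836).

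Mdr2-/- control replicate 4 was high for Ptgfr at 4.54 (0.868 to 1.59), Cldn7 at 6.95 (3.02 to 3.83), Vnn1 at 22.3 (13.3 to 15.99), Phgdh at 1.54 (0.527 to 0.773) and Pkhd1 at 52.2 (27.5 to 33.4). Replicate 3 of that group was high for Abcb1b at 46.9 (19.4 to 25.7) and C6 at 411 (211 to 236). Replicate 5 was high for Cyp4a14 at 68.7 (24.5 to 35.1) and low for Egr2 at 1.05 (1.74 to 2.25), and replicate 1 was low for Sprr1a at 4.20 (14.7 to 19.5). Igf2bp1 stood at 0.0351 in replicate 6, which is 1 count, and at 0 in the other 5.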

How the results depend on the processing

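The 4379 genes called became 7340 with limma voom and quality weights (3540 higher, 3800 lower) and 5073 with DESeq2. They became 1279 with the nuclear RNA share in the model (626 higher, 653 lower; 399 and 275 by at least 2-fold), 2595 with the title number range (1379 and 1216) and 1884 among titles of 2000 or more (862 and 1022, with 2 Mdr2-/- controls). Without tumour replicate 6 and the Mdr2-/- tumour library that stood apart, 7211 were called (3511 higher, 3700 lower, 698 lower by at least 2-fold). On log2 TPM with a pseudocount of 1 or 0.1, 1180 and 1286 were higher, 268 and 520 by at least 2-fold, and 2560 and 2554 were lower. Higher genes were then 31.6% and 33.5% of calls beside 53.1%, and all log2 differences shifted by a median of -0.11 and -0.15. The upper-quartile scaling gave 60.9% higher. A stricter filter left 631 at least 2-fold higher. The cause of these moves was not tested, except that the stricter filter tests 13519 genes.

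Leaving out each library gave 2863 to 7005 genes called, 1540 to 3407 higher and 1323 to 3598 lower, 822 to 1496 at least 2-fold higher and 365 to 700 at least 2-fold lower. The share differences, tumour minus control in percentage points, then ran from 0.747 to 1.35 for mitochondrial genes, 1.96 to 2.88 for nuclear RNAs, 0.0537 to 0.0703 for haemoglobin and 0.895 to 1.53 for the 10 most abundant genes. From summed TPM the differences of 1.99, 4.22 and 2.81 points for mitochondrial genes, nuclear RNAs and the 10 most abundant genes missed the threshold. No paired analysis was possible because the labels carry no replicate numbers. Of 147 called genes in the text 90 kept call and direction under every alternative and 140 without each library, and no gene in the text was called in opposite directions by any of these fits. Depth limits statements on genes near the floor of 3 counts per library.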
